A study of Mus musculus with 6 samples.

Results

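The genes described here are 10 genes of activated microglia, Trem2, Tyrobp, Tlr2, Axl, Cst7, Lyz2, Cd68, Cd63, Lpl and Spp1. They were taken by symbol from a list, and all 10 were matched to 1 Ensembl identifier each among the 55335 identifiers counted. All 10 were among the 19809 genes with enough counts to be tested. RNA-seq was done on striatum, a forebrain region that receives cortical input and shapes movement, taken from C57 mice, in 3 control samples (genotype WT, titled NC) and 3 samples overexpressing PDE5A (titled OE), a comparison that asks what PDE5A overexpression changes there. PDE5A is a phosphodiesterase that hydrolyses cyclic GMP. How it was overexpressed, what the controls received, the age of the mice, and whether each sample was a separate animal are not stated in the labels.

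Microglia are the resident macrophages of the brain. In a lesion, in degeneration or near protein deposits they leave their surveying state and take up a shared programme of phagocytosis, lysosomal digestion and lipid handling. The surface receptor Trem2 and its signalling adaptor Tyrobp are required for the full form of this programme, and Cst7, Lpl, Spp1 and Axl are among the genes that mark it. Several of these genes are also used by other cells, so that in whole tissue Lpl, Axl, Spp1 and Cd63 cannot be assigned to microglia alone. In such bulk samples a change in the number of cells of a type and a change in RNA per cell cannot be told apart.

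Among the 10 genes, the differences between groups were clearest for Cst7 and Lyz2, which were higher in all 3 overexpression libraries, and for Axl, which was lower in all 3. Cst7 had 0.259 ± 0.0236 counts per 1000000 counts of the library (CPM) in the controls and 0.983 ± 0.117 in the overexpressing samples (SD, n = 3). Lyz2 had 8.503 ± 1.98 and 15.1 ± 2.34 CPM, and Axl 55.8 ± 3.16 and 46.8 ± 1.70 CPM (SD, n = 3). None of the 10 passed an adjusted p of 0.05 in edgeR's quasi-likelihood test, where 1 gene of 19809, Pde5a itself, did, a background of 0.00505%. The DESeq2 Wald test called 2 members, Cst7 and Lyz2, both higher. Over all genes tested it called 83 (0.419%), 76 higher (0.384%) and 7 lower (0.0353%).

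The promoters of these 3 genes are shown first, since they are the members with the smallest p. RefSeq promoter windows on GRCm38.p6, 250 bases before to 50 after the start, were found for 8 of the 10 genes. The motif AGGAAGT, a core bound by PU.1, the lineage factor of macrophages, and by other ETS factors, was searched on both strands and is printed in capitals. It was present in the windows of Cst7, Lyz2 and Spp1, and in 9.35% of 32851 windows of all genes. The interferon-stimulated response element (GAAA, any 2 bases, GAAA) was present for Spp1 alone and in 3.44% of all windows, and the E-box CACGTG for no member and in 7.15% of all. Only bases upstream of both the RefSeq and the GENCODE start are printed, 5′ to 3′ on the strand of the gene. A match describes letters in a window and is not a measured binding site.
Cst7, chr2:150570165-150570414, plus strand: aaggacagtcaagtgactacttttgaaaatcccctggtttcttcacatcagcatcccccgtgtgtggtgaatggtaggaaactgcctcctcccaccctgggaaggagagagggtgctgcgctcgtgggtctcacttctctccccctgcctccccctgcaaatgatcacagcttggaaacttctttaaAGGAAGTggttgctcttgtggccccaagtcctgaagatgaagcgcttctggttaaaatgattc
Lyz2, chr10:117282322-117282522, minus strand: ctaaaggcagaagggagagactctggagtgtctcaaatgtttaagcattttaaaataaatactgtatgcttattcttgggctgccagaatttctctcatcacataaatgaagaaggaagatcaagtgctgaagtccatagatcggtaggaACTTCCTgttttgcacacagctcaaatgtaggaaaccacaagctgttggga
Axl, chr7:25788734-25788983, minus strand: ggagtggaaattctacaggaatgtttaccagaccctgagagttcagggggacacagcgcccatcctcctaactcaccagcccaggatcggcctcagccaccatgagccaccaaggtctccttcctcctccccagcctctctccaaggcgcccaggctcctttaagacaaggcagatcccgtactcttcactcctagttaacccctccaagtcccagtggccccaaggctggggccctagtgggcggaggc

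The libraries held 33013698 to 42288789 counts. Pde5a, the check of the labels, had 3.72, 4.14 and 6.09 CPM in control replicates 1 to 3 and 760, 700.5 and 592 CPM in overexpression replicates 1 to 3, and rose 147-fold (adjusted p = 0.000151, edgeR). Markers of medium spiny neurons, the principal cells of the striatum, were present in every library, with 9 genes summing to 3307 to 6852 CPM. The libraries differed in other tissue. Markers of the choroid plexus, the epithelium that makes cerebrospinal fluid, stood out in overexpression replicates 1 and 2, where 12 genes summed to 542 and 2480 CPM, against 34.7 CPM in overexpression replicate 3 and 53.6 to 74.2 CPM in the controls. Cortical neuron markers summed to 127 to 901 CPM in the controls and 304 to 1146 CPM in the overexpressing samples. For the members, values without overexpression replicates 1 and 2 are given beside the others where they turned or moved by more than 1.5 times, and without those libraries the lone overexpression library is assumed to vary as the controls do.

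Trem2 (ENSMUSG00000023992, chromosome 17, 48346401 to 48354147 in mm10) is the lipid- and lipoprotein-sensing receptor at the head of the programme. It had 16.6, 14.7 and 17.9 CPM in control replicates 1 to 3 and 20.5, 22.7 and 17.6 CPM in overexpression replicates 1 to 3. Replicates 1 and 2 of overexpression lay above every control, while the third lay just below control replicate 3, so the groups overlapped. The difference on the log2 scale was 0.31 (SE 0.12), with an unadjusted p of 0.0369 and an adjusted p of 0.99996 in edgeR. With overexpression replicate 3 as the only overexpression library the log2 fold change was 0.10.

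Tyrobp (ENSMUSG00000030579, chromosome 7, 30413760 to 30417585) encodes DAP12, the adaptor through which Trem2 signals. It had 12.2, 12.9 and 14.0 CPM in the controls and 15.8, 16.1 and 14.3 CPM in the overexpressing samples. All 3 overexpression libraries were higher than all 3 controls, although the nearest values of the 2 groups were close together. Its log2 fold change of 0.24 (SE 0.10) had an unadjusted p of 0.0422 and an adjusted p of 0.99996 in edgeR, and it was 0.13 without overexpression replicates 1 and 2. The receptor and its adaptor thus had log2 fold changes of like size, neither past the threshold.

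Tlr2 (ENSMUSG00000027995, chromosome 3, 83836272 to 83841767) is a pattern-recognition receptor for bacterial lipoproteins. Its counts were low, 61, 41 and 72 in the controls and 85, 70 and 39 in the overexpressing samples, which is 1.46, 0.9995 and 1.78 CPM and 2.15, 2.11 and 1.04 CPM. Overexpression replicate 3 lay at the bottom of the control range and the others above it. At 0.32 (SE 0.35) its log2 fold change was smaller than its error. It turned to −0.44 without overexpression replicates 1 and 2 and to −0.16 once the choroid plexus level was a covariate, and it was 0.13 to 0.59 with any single library left out.

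Axl (ENSMUSG00000002602, chromosome 7, 25757273 to 25788705) is a receptor tyrosine kinase that binds Gas6 on dying cells. It had 59.0, 52.7 and 55.9 CPM in the controls and 48.5, 46.7 and 45.1 CPM in the overexpressing samples. Every overexpression library was lower than every control. Its log2 fold change was −0.26 (SE 0.07), with an unadjusted p of 0.0068 and an adjusted p of 0.980 in edgeR. Axl kept its direction in all 16 alternative settings, from −0.31 to −0.21, and the value without overexpression replicates 1 and 2 was −0.31. Markers of astrocytes, which also express Axl, had 6 of 6 genes negative, a median of −0.19 (−0.30 without overexpression replicates 1 and 2), and sums of 4936 to 5355 CPM in the controls and 4183 to 4778 CPM in the overexpressing samples. The astrocyte filament gene Gfap, which is not in this list, went the other way, with a log2 fold change of 0.63. The part of astrocytes in the Axl difference was not tested.

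**Figure D1:**
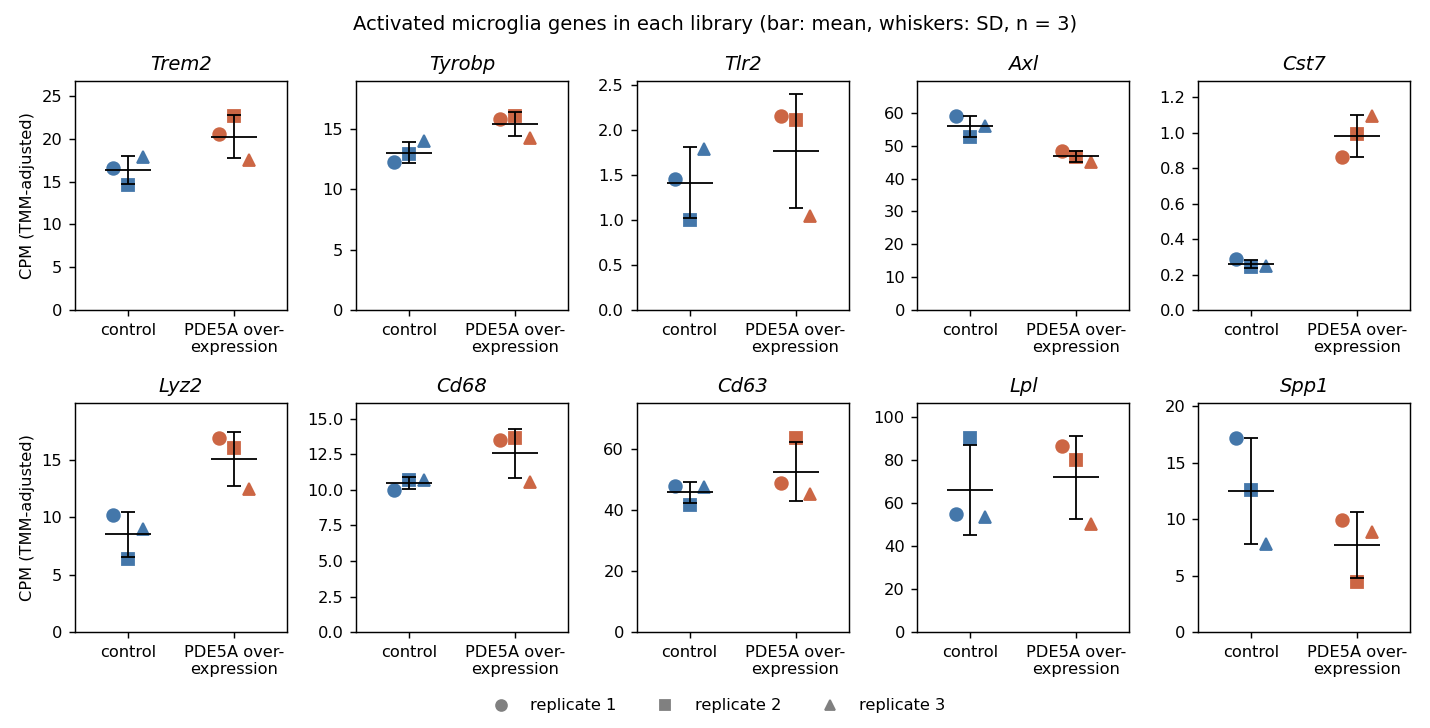
CPM of each of the 10 genes (y axes, from 0) in control (blue) and PDE5A-overexpressing (orange) libraries, with the replicate number as the point's shape, the mean as a bar and the SD of 3 libraries as whiskers. Cst7, Lyz2 and Tyrobp are higher in all 3 overexpression libraries, Axl is lower in all 3, and the groups overlap for the other 6 genes.

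Cst7 (ENSMUSG00000068129, chromosome 2, 150570415 to 150578944) encodes cystatin F, an inhibitor that acts on cathepsins inside endosomes and lysosomes of immune cells. It was counted 12, 10 and 10 times in the controls and 34, 33 and 41 times in the overexpressing samples, which is 0.286, 0.244 and 0.247 CPM and 0.861, 0.993 and 1.09 CPM. The 2 groups were far apart in relation to the spread within each, although the counts are small. On the log2 scale the difference was 1.91 (SE 0.31), a fold of 3.75, with an unadjusted p of 0.000275 and an adjusted p of 0.461 in edgeR and of 0.0167 in DESeq2. In contrast to Trem2, Tlr2 and Cd68, overexpression replicate 3 had the highest Cst7 level, and without overexpression replicates 1 and 2 the log2 fold change was 2.06. Cst7 is also made by cytotoxic lymphocytes, and T cell markers had 8 of 8 tested genes positive, a median log2 fold change of 1.41 and a mean level of −0.80 to −0.26 log2 CPM in the controls and 0.77 to 0.96 in the overexpressing samples. The 10 T cell genes summed to 47.8 to 79.8 CPM in the controls and 58.0 to 89.1 CPM in the overexpressing samples, sums in which Cd4 alone, which other cells also express, made up 40.0 to 80.2 CPM at a log2 fold change of 0.15. Cxcr6, a chemokine receptor of T cells, had 0.119, 0.122 and 0.272 CPM in the controls and 0.963, 1.08 and 0.854 CPM in the overexpressing samples (adjusted p = 0.531 in edgeR). The T cell receptor chain gene Cd3g had 0.143, 0.171 and 0.0495 CPM and then 0.380, 0.632 and 0.747 CPM, and Cd3e had 0.0716, 0 and 0.198 CPM and then 0.912, 0.602 and 0.641 CPM. The groups did not overlap for these 3 genes, which were named for the smallest p in their list, as for Cst7. Of the 8 tested T cell genes 5 did not overlap on the higher side, against 4.81% of all genes, and 3 overlapped. The T cell receptor gene Trbc2 overlapped, with 5.61, 0.609 and 5.47 CPM in the controls and 3.70, 3.58 and 11.1 CPM in the overexpressing samples. Cd3d, Cd3e, Cd8a and Nkg7 were at 0 in at least 1 library. The part of T cells in the Cst7 difference was not tested.

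Lyz2 (ENSMUSG00000069516, chromosome 10, 117277331 to 117282321) encodes lysozyme M, an enzyme of macrophages and neutrophils that digests bacterial walls. It had 10.2, 6.34 and 8.96 CPM in the controls and 16.9, 15.97 and 12.4 CPM in the overexpressing samples. The lowest overexpression library was above the highest control. Its log2 fold change was 0.83 (SE 0.20), a fold of 1.77, with an unadjusted p of 0.0032 and an adjusted p of 0.849 in edgeR and of 0.0244 in DESeq2, and it was 0.55 without overexpression replicates 1 and 2. Its close relative Lyz1 had at most 0.150 CPM in any library, and reads shared by the pair could be counted under either. Lyz2 is also high in monocytes and neutrophils. Of 12 markers of those cells 8 were tested, 7 of them positive with a median log2 fold change of 0.56, and with sums of 18.9 to 22.4 CPM in the controls and 17.8 to 27.7 CPM in the overexpressing samples. Fn1, which vessels and fibroblasts also make, supplied 13.3 to 22.3 CPM of these sums at a log2 fold change of 0.02. Ly6c2, a surface gene of inflammatory monocytes, had 0.596, 0.658 and 1.63 CPM in the controls and 1.77, 4.66 and 2.88 CPM in the overexpressing samples. Ccr2, the chemokine receptor that brings monocytes into tissue, had 0, 0.171 and 0.247 CPM and then 0.760, 0.451 and 0.374 CPM. Ly6c1, a relative of Ly6c2 listed here as a marker of brain endothelium, had a higher CPM than Ly6c2 in every library. Reads shared by Ly6c1 and Ly6c2 could be counted under either, and their part in the Ly6c2 difference was not tested. The groups did not overlap for Ly6c2 and Ccr2, as for Lyz2, and neither passed the adjusted threshold. They were the only 2 of the 8 tested markers that did not overlap, against 4.81% of all genes on the higher side, and 6 overlapped. The neutrophil genes S100a8 and S100a9 were among those that overlapped. S100a8 had 0.477, 0.244 and 0.124 CPM in the controls and 0.203, 0.271 and 0.561 CPM in the overexpressing samples. Camp, Ccr2, Chil3 and Ly6g were each at 0 in at least 1 library. Markers of the macrophages at brain borders summed to 15.8 to 21.6 CPM in the controls and 14.3 to 22.9 CPM in the overexpressing samples, with Cbr2, Lyve1 and Pf4 at 0 in at least 1 library. The part of these cells in the Lyz2 difference was not tested.

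Cd68 (ENSMUSG00000018774, chromosome 11, 69664213 to 69666153) encodes macrosialin, a glycoprotein of macrophage lysosomes widely used as a stain for phagocytic microglia. It had 9.996, 10.7 and 10.7 CPM in the controls, a narrow range, and 13.5, 13.6 and 10.6 CPM in the overexpressing samples. Overexpression replicates 1 and 2 stood above all controls, and the third lay within the control range. A log2 fold change of 0.26 (SE 0.13) had an unadjusted p of 0.0700, and it was 0.01 without overexpression replicates 1 and 2.

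Cd63 (ENSMUSG00000025351, chromosome 10, 128900989 to 128912822) encodes a tetraspanin of late endosomes and lysosomes that many cell types carry. It had 48.0, 41.9 and 47.7 CPM in the controls and 49.0, 63.7 and 45.3 CPM in the overexpressing samples. One library, overexpression replicate 2, stood apart, and it is the library with the highest choroid plexus markers. Its log2 fold change of 0.20 (SE 0.13) was 0.04 without that library and −0.02 without overexpression replicates 1 and 2.

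Lpl (ENSMUSG00000015568, chromosome 8, 68880491 to 68907448) encodes lipoprotein lipase, which releases fatty acids from lipoproteins. It had 54.6, 90.0 and 53.4 CPM in the controls and 86.1, 79.7 and 49.99 CPM in the overexpressing samples, so each group held both high and low libraries. The 3 high libraries, control replicate 2 and overexpression replicates 1 and 2, were also the 3 with the highest sums of medium spiny neuron markers, 6852, 6825 and 5299 CPM, against 3307 to 5136 CPM in the others. The part of medium spiny neurons in this order was not tested. The log2 fold change of 0.12 (SE 0.29) was smaller than its error, and its sign turned in 4 of 16 settings, to −0.40 without overexpression replicates 1 and 2. With the level of cortical neuron markers as a covariate, an alternative added after the data were seen, the Lpl value was 0.32, with an unadjusted p of 0.0038 and an adjusted p of 0.577 in edgeR.

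Spp1 (ENSMUSG00000029304, chromosome 5, 104435118 to 104441050) encodes osteopontin, a secreted matrix protein that binds integrins and Cd44. It had 17.2, 12.6 and 7.77 CPM in the controls and 9.93, 4.42 and 8.84 CPM in the overexpressing samples. The lowest control lay within the overexpression range, and the highest and lowest of all 6 libraries differed by a larger ratio than for any other member except Cst7. Its log2 fold change of −0.69 (SE 0.39) had an unadjusted p of 0.124. The value was −0.39 when control replicate 1 was left out, −0.41 when overexpression replicate 2 was, and −0.43 once the choroid plexus level was a covariate. The gene model Gm42793 shares 309 exon bases with Spp1 on the same strand, and it was counted at most 4 times in a library.

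**Figure D2:**
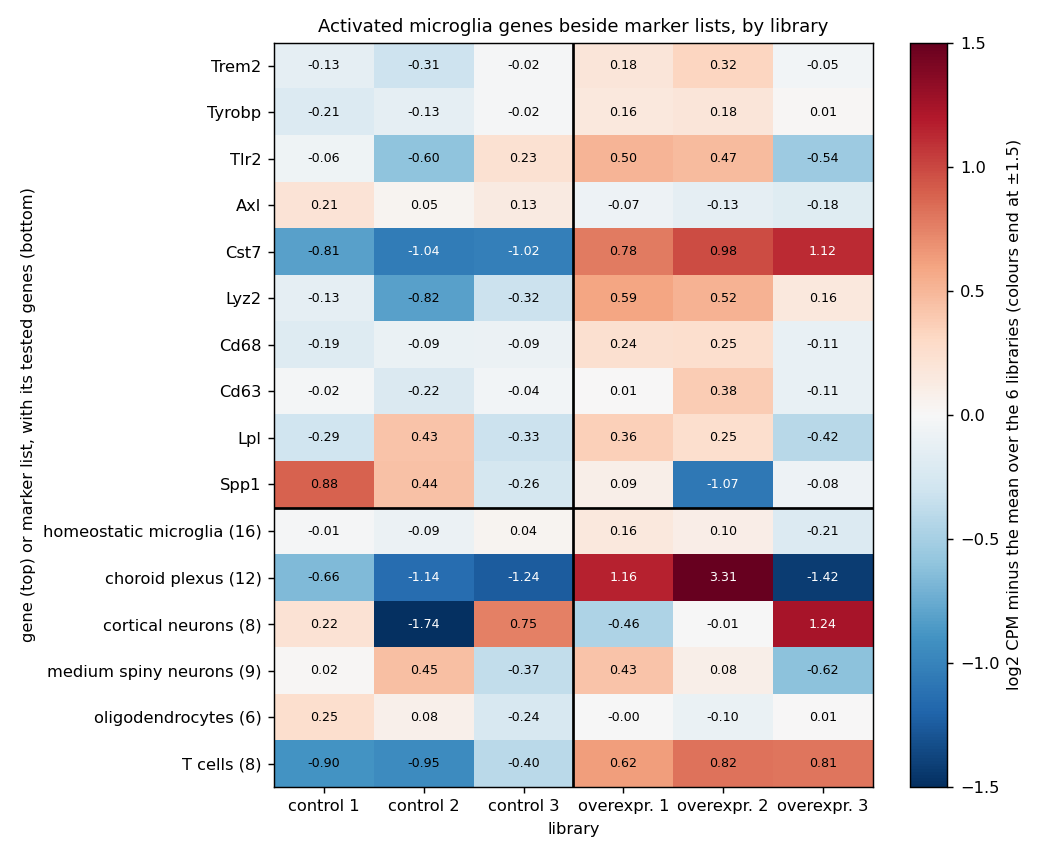
Log2 CPM minus its mean over the 6 libraries for the 10 genes (upper rows) and for marker lists (lower rows, mean of the tested genes with a prior count of 2), by library. Cst7 separates the groups in every library, while Tlr2, Cd68 and Trem2 are high in overexpression replicates 1 and 2 and within the control range in overexpression replicate 3.

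As a group, 8 of the 10 genes had positive and 2 negative log2 fold changes, with a median of 0.25 beside 0.0016 for all genes tested, of which 50.6% were positive. At an unadjusted p of 0.05, 4 of 10 were higher (Cst7, Lyz2, Trem2 and Tyrobp) and 1 lower (Axl), against 2.25% and 1.64% of all genes and 3.89% in either direction. The groups did not overlap for 3 higher members and 1 lower member, against 4.81% and 4.11% of all genes and 8.93% in either direction. The genes were listed with results of these data already known, so these shares are a description. The median log2 fold change of the members was 0.19 to 0.35 when any single library was left out. It was 0.04 once the choroid plexus level was a covariate, and −0.00389 without overexpression replicates 1 and 2. Without those 2 libraries Cd63, Lpl and Tlr2 turned and all other members kept their direction, Cd68 at 0.01.

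The levels of different genes were compared per length, as CPM per kilobase of all annotated exons. This length counts rarely used exons in full and so lowers the value of genes that have them. In control the order was Tyrobp (19.5 ± 1.32), Cd63 (12.5 ± 0.936), Axl (11.1 ± 0.628), Cd68 (8.33 ± 0.327), Spp1 (7.59 ± 2.85), Lyz2 (6.46 ± 1.502), Lpl (6.30 ± 1.98), Trem2 (3.31 ± 0.327), Tlr2 (0.469 ± 0.130) and Cst7 (0.263 ± 0.0239), with SD over 3 libraries. Neighbours whose libraries overlapped, and whose order is therefore unsettled, were Cd63 and Axl, Cd68 and Spp1, Spp1 and Lyz2, and Lyz2 and Lpl. In overexpression the order ran Tyrobp, Cd63, Lyz2, Cd68, Axl, Lpl, Spp1, Trem2, Cst7 and Tlr2. Lyz2 stood sixth in the controls and the third in the overexpressing samples, at 11.5 ± 1.78 CPM per kilobase, where it overlapped both its neighbours. Cd68 and Axl, Lpl and Spp1, and Spp1 and Trem2 overlapped as well, so their order in the overexpressing samples is unsettled too. Cst7 was below Tlr2 in every control library and above it in every overexpression library, at 0.997 ± 0.119 against 0.586 ± 0.209 CPM per kilobase (SD, n = 3).

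Homeostatic and general microglia genes were then set beside the members, to see the members' level relative to other microglial transcripts in the same library. The 16 homeostatic genes had 9 positive and 7 negative log2 fold changes with a median of 0.03, and 0 passed the adjusted threshold. At an unadjusted p of 0.05, 2 were higher and 1 lower, against 2.25% and 1.64% of all genes. C1qa and C1qb, subunits of the complement component that starts the classical pathway, had 44.5 ± 3.71 and 47.1 ± 2.45 CPM in the controls and 58.9 ± 5.48 and 58.2 ± 5.20 in the overexpressing samples, and Fcrls, a microglial Fc receptor-like gene, had 19.3 ± 1.84 and 13.8 ± 2.65 CPM (SD, n = 3). The geometric mean of the 16 genes was 30.9, 29.3 and 32.1 CPM in the controls and 34.9, 33.5 and 27.0 CPM in the overexpressing samples, so overexpression replicate 3 had the lowest level of microglial genes and replicates 1 and 2 the highest.

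Divided by this geometric mean, 5 members did not overlap between groups on the higher side (Cst7, Lyz2, Trem2, Tyrobp and Cd68), against 2.41% of all genes tested, and 1 on the lower side (Axl), against 3.18%. Such separation was not particular to the members. Among the 16 reference genes themselves, C1qa, C1qb, C1qc, Aif1 and Tmem119 did not overlap on the higher side of this ratio. Csf1r, P2ry12 and Fcrls did not overlap on the lower side. Trem2 was at −0.90, −0.999 and −0.85 on the log2 ratio scale in the controls and −0.76, −0.56 and −0.62 in the overexpressing samples. Cd68 was at −1.63, −1.45 and −1.58 in the controls and −1.37, −1.30 and −1.35 in the overexpressing samples. Both of these genes overlapped between groups in CPM and did not as a ratio. Lyz2 became more even within the overexpression group, at −1.05, −1.07 and −1.12 against −1.60, −2.21 and −1.84 in the controls. Among the 6 members that did not overlap, the difference of mean log2 ratios was 1.88 for Cst7, 0.81 for Lyz2, 0.27 for Trem2, 0.21 for Cd68, 0.20 for Tyrobp and −0.29 for Axl. Among the 4 that overlapped it was 0.25 for Tlr2, 0.15 for Cd63, 0.09 for Lpl and −0.74 for Spp1. This ratio was chosen after the values were seen and was not tested.

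**Figure D3:**
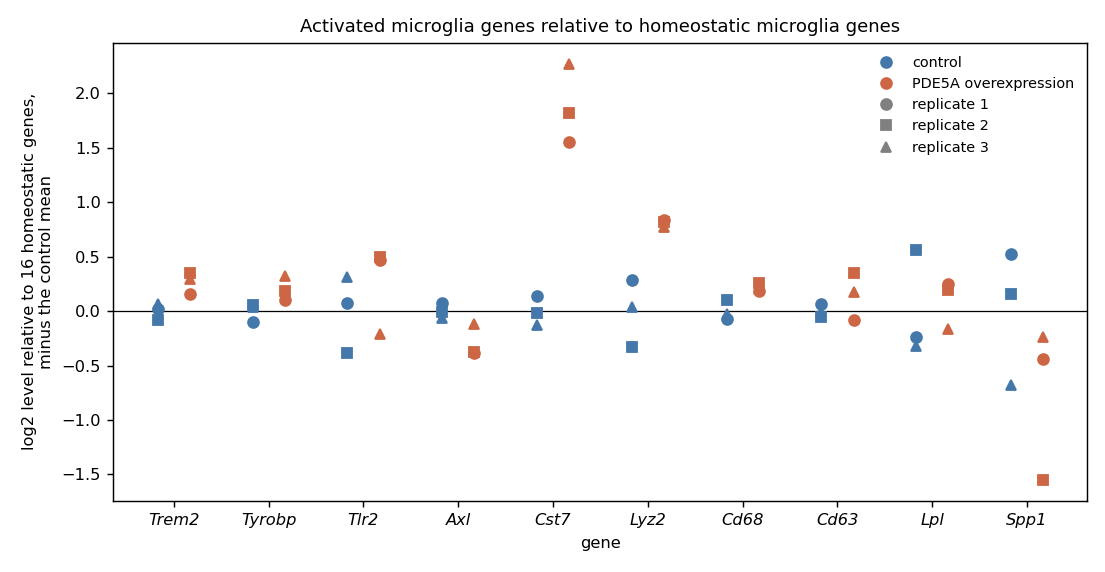
Log2 level of each of the 10 genes divided by the geometric mean of 16 homeostatic microglia genes in the same library, minus the control mean (y axis), for control (blue) and overexpression (orange) libraries. Cst7, Lyz2, Trem2, Tyrobp and Cd68 lie above all controls in every overexpression library and Axl lies below them.

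The wider programme was followed in 23 other genes of the activated state, of which 21 were tested. Of these 18 were positive and 3 negative, with a median log2 fold change of 0.17, and 0 passed the adjusted threshold. At an unadjusted p of 0.05 in edgeR, 5 were higher and 0 lower, against 2.25% and 1.64% of all genes. Clec7a, the receptor Dectin-1 for fungal glucans, had 1.36, 0.756 and 1.163 CPM in the controls and 3.07, 2.38 and 1.95 CPM in the overexpressing samples, a log2 fold change of 1.17 (SE 0.29, adjusted p = 0.852 in edgeR). Cd52, a small surface glycoprotein of leukocytes, had 1.61 ± 0.390 and 3.22 ± 0.560 CPM, and the lysosomal protease Ctsa had 83.3 ± 1.62 and 94.2 ± 2.33 CPM (SD, n = 3). The groups did not overlap for these 3 genes, which were named for the smallest p in their list. Of the 21 tested 5 did not overlap on the higher side, against 4.81% of all genes, and 16 overlapped. Itgax, the integrin CD11c, and Apoe, the lipid carrier, are added here after their values were seen. Itgax had 0.577 ± 0.289 and 1.25 ± 0.261 CPM, and Apoe, by far the more abundant, had 1330 ± 7.91 and 1332 ± 143 CPM (SD, n = 3), a log2 fold change of 0.00 (SE 0.10).

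**Figure D4:**
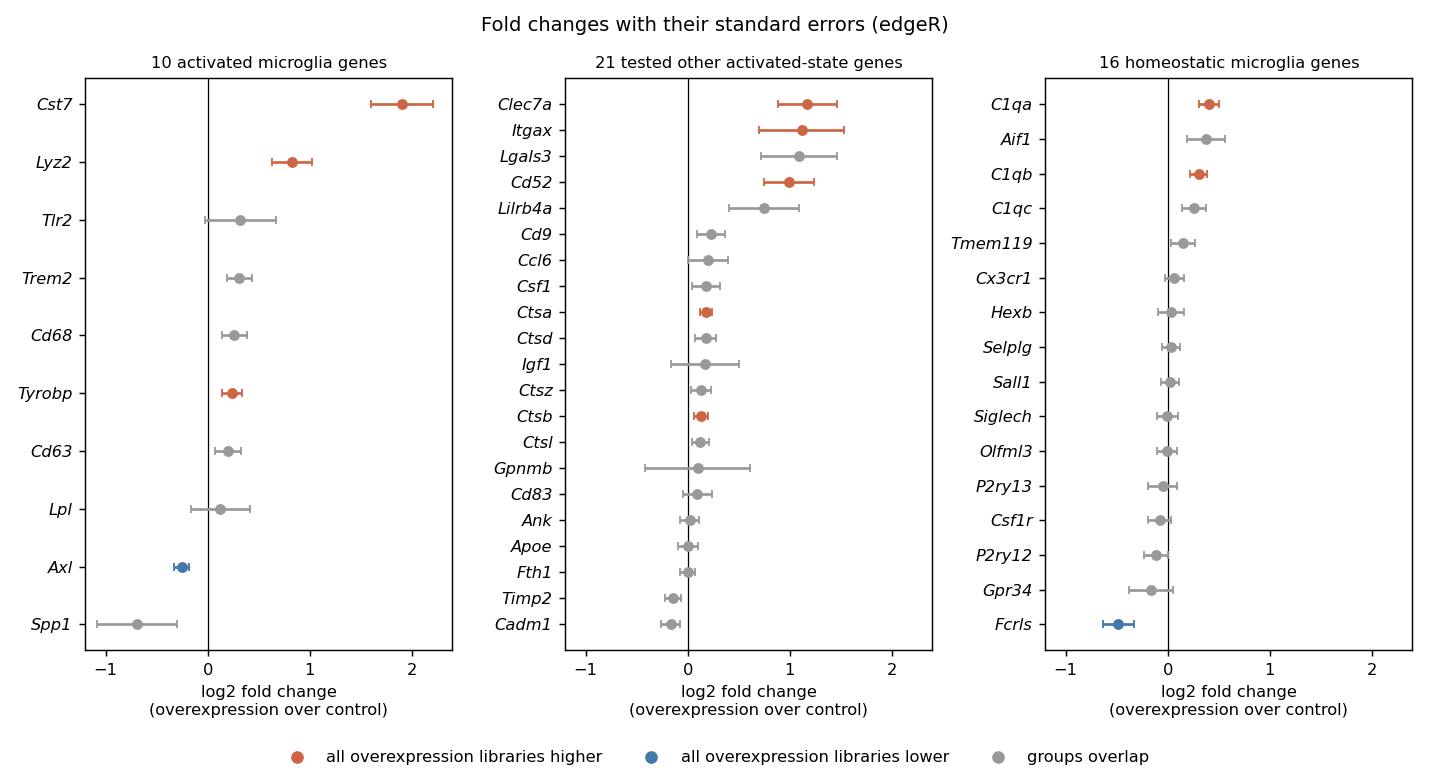
Log2 fold change of overexpression over control (x axis) with its standard error for the 10 genes, 21 other genes of the activated state and 16 homeostatic microglia genes. Orange and blue mark genes whose overexpression libraries all lie above or below the controls, and grey marks overlap. Cst7 at 1.91 has the largest value in the 3 panels.

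Downstream of Trem2 and Tyrobp, 12 signalling genes were listed and 11 tested, of which 9 were positive, with a median log2 fold change of 0.23 and 0 past the adjusted threshold. Ptpn6, the phosphatase SHP-1 that restrains such receptors, had 4.77 ± 0.468 CPM in the controls and 7.09 ± 0.356 in the overexpressing samples (SD, n = 3), a log2 fold change of 0.57 (SE 0.14, adjusted p = 0.849 in edgeR). Ms4a6d, a membrane-spanning gene of macrophages, had 0.706 ± 0.0766 and 1.58 ± 0.527 CPM, and the kinase gene Btk had 1.19 ± 0.232 and 1.82 ± 0.435 CPM (SD, n = 3). The groups did not overlap for Ptpn6 and Ms4a6d and overlapped for the other 9 tested, against 4.81% of all genes not overlapping on the higher side.

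Around Tlr2, 16 genes of the Toll-like receptor pathway were listed and 14 tested, of which 11 were positive, with a median log2 fold change of 0.08 and 0 past the adjusted threshold or at an unadjusted p of 0.05. Tlr4, the endotoxin receptor, had 1.25 ± 0.203 CPM in the controls and 1.92 ± 0.532 in the overexpressing samples. Tnfaip3, an inhibitor of NF-kappaB signalling, had 5.05 ± 0.188 and 6.09 ± 0.667 CPM, and Tlr1, a partner of Tlr2, had 0.867 ± 0.272 and 1.26 ± 0.321 CPM (SD, n = 3). The cytokine genes Il1b and Tnf were at 0 in at least 1 library and were not tested.

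Among the partners of Axl, its ligand Gas6 had 62.6, 60.1 and 64.1 CPM in the controls and 64.7, 81.1 and 68.2 CPM in the overexpressing samples, and the related ligand Pros1 had 13.2, 12.7 and 13.3 CPM and 16.5, 14.3 and 13.5 CPM. Both ligands were higher in every overexpression library, opposite in direction to Axl, and neither passed the adjusted threshold, with log2 fold changes of 0.20 (SE 0.09) and 0.18 (SE 0.10). The 4 genes of this list had a median of 0.12. Of 12 genes that act with Lpl or handle lipids 11 were tested, 4 positive and 7 negative, with a median of −0.02 and 0 past the adjusted threshold. Cd36, a fatty acid transporter, had 1.60, 1.12 and 1.24 CPM in the controls and 0.355, 0.511 and 0.427 CPM in the overexpressing samples. It was lower in every overexpression library, as were 4.11% of all genes, and the groups overlapped for the other 10 tested. Its log2 fold change was −1.61 (SE 0.29, adjusted p = 0.607 in edgeR and 0.0291 in DESeq2).

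Of 12 further lysosomal genes, listed beside Cst7, Lyz2, Cd68 and Cd63, 11 were positive, with a median log2 fold change of 0.06 and 0 past the adjusted threshold. At an unadjusted p of 0.05 in edgeR, 4 were higher, against 2.25% of all genes. Ctss, the cathepsin most typical of microglia, had 89.7, 78.4 and 92.0 CPM in the controls and 122, 132 and 105 CPM in the overexpressing samples, a log2 fold change of 0.47 (SE 0.10, adjusted p = 0.824 in edgeR and 0.0282 in DESeq2). Ctsh, another cathepsin, had 10.2 ± 0.531 and 13.6 ± 1.62 CPM, and Grn, which encodes progranulin, had 33.8 ± 1.42 and 38.1 ± 1.35 CPM (SD, n = 3). All 3 were higher in every overexpression library, as were 4.81% of all genes, and the groups overlapped for the other 9 lysosomal genes. The 8 receptor genes for osteopontin had a median of 0.03, values between −0.15 and 0.11, overlapping groups throughout and 0 past the adjusted threshold.

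These lists too were compared without overexpression replicates 1 and 2. The median log2 fold change was then 0.20 for the other genes of the activated state, 0.09 for Trem2 signalling, 0.02 for the Toll-like receptor pathway, 0.07 for the partners of Axl, −0.08 for lipid handling, 0.02 for the lysosomal genes, 0.00 for the osteopontin receptors and −0.13 for the homeostatic genes. Single genes moved by more than 1.5 times as well. Ctss was then at 0.28, Ctsh at 0.20, Gas6 at 0.13, Pros1 at 0.04, Ms4a6d at 0.70, Btk at 0.24, Tlr4 at 0.28, C1qa at 0.25 and C1qb at 0.16, all lower but still positive. Apoe turned to −0.19, and Tlr1 was at 0.90. The log2 fold change of Fcrls was −0.84, farther from 0 than with all libraries. In contrast, the log2 fold change of Cd36 was −1.62 and that of Ptpn6 was 0.52, both near their values with all libraries.

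The genes whose pattern over the 6 libraries was nearest to those of Cst7, Lyz2 and Axl were found by the root-mean-square difference of centred log2 CPM, among named genes with a mean of at least 1 CPM. Cst7 itself lay below that mean, as did the T cell genes Cxcr6, Cd3g and Cd3e, which therefore could not appear here. Nearest to Cst7 were the complement genes C3 and C4b, at differences of 0.18 and 0.24, and the interferon-induced GTPase Gbp2 at 0.24, beside the spread of Cst7 itself of 0.87. The log2 fold change of C3 was 1.83, with an adjusted p of 0.0777 in edgeR and 1.2e-11 in DESeq2, and it passed the edgeR threshold without a filter (0.0394) and with the cortical covariate (0.0379). The log2 fold change of C4b was 1.59, with an adjusted p of 0.103 in edgeR, 3.1e-18 in DESeq2 and 0.0221 with the cortical covariate. C4b shares sequence with its neighbour C4a, so its count is uncertain. In comparison, the log2 fold change of Gbp2 was 1.51, with an adjusted p of 0.352 in edgeR and 8.4e-07 in DESeq2. Nearest to Lyz2 were Eda2r at 0.11, the astrocyte filament gene Gfap at 0.12 and Naip5 at 0.13, beside a spread of 0.49. The log2 fold change of Gfap was 0.63, with an adjusted p of 0.968 in edgeR and 0.0418 in DESeq2, and the 2 others were called by neither. Nearest to Axl were Mindy2, Etv1 and Paqr8, each at 0.04, beside a spread of 0.14. With 6 libraries such likeness is a description.

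**Figure D5:**
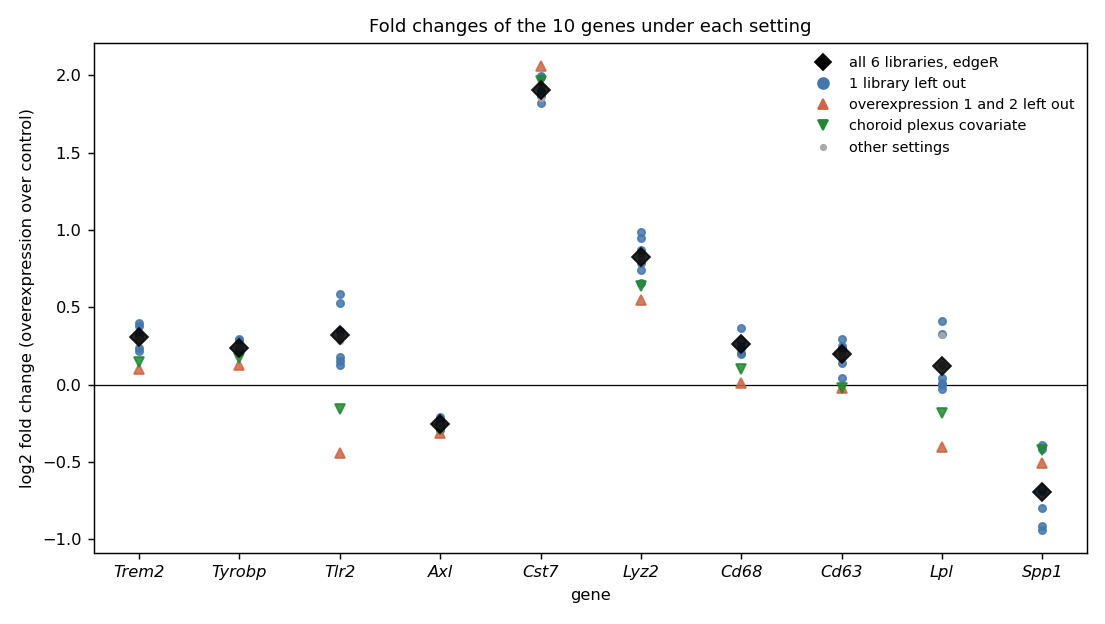
Log2 fold change of each gene (y axis) in the edgeR fit of all 6 libraries (black) and in the other settings, among them each library left out (blue), overexpression replicates 1 and 2 left out (orange) and a fit with choroid plexus level as covariate (green). Cst7 stays between 1.82 and 2.06 and Axl between −0.31 and −0.21, while Tlr2, Lpl and Cd63 cross 0.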

How the data were processed

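The authors deposited 1 table per sample, of raw counts by Ensembl identifier. The aligner STAR 2.5.3a and build mm10 stand in the submitters' processing notes, beside DESeq 1.16.1, FastQC 0.11.5 and Cuffnorm, with no role stated for any. For the counting program and its strand setting no source used here gives a name, so overlapping and antisense genes are uncertain. Per the labels' protocols, RNA was isolated with Trizol and libraries were strand-specific. Of 55335 identifiers, 55154 matched a symbol in GENCODE M21 (same assembly).

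Samples were grouped by title. The test was that of edgeR 4.0.16 under R 4.3.3 (TMM factors, filterByExpr, robust quasi-likelihood F-test, two-sided, Benjamini-Hochberg over 19809 genes, threshold 0.05). Standard errors are the absolute log2 fold change over the square root of F. CPM uses TMM-adjusted library sizes, and log2 CPM a prior count of 2. DESeq2 1.42.0 and limma-voom 3.58.1 were alternatives, with other factors, filters, left-out libraries, a replicate block and covariates. The test was tried on simulated data. Within a group, libraries were no duplicates (chi-square per degree of freedom 20.9 to 54.9). Since separate animals are not named, p-values measure only the spread of these libraries, possibly technical.

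The members and lists were chosen with earlier results of these data known. Besides the members and Pde5a, the text names up to 3 genes per list with the smallest p, and the 3 genes nearest in pattern to Cst7, Lyz2 and Axl, and says where others were added. Of the marker lists, only those that bear on a member are given in full. The remaining lists had these median log2 fold changes: brain endothelium 0.00, pericytes and smooth muscle −0.10, meningeal fibroblasts 0.15, oligodendrocyte precursors −0.13, oligodendrocytes −0.08, cortical neurons 0.40, medium spiny neurons −0.03 and choroid plexus 3.25. In each of these 0 genes passed the threshold.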

Additional observations from a re-analysis of the deposited data

How the results depend on the processing

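In 16 alternative settings, 7 of the 10 members kept their direction (Cst7 without a value where 1 CPM was required in all libraries) and 3 did not. The count of members past the threshold was 2 with DESeq2, Cst7 (adjusted p = 0.0167) and Lyz2 (0.0244), and 0 in the other 15 settings, where 0 was also the count whichever library was left out. The count of all genes past the threshold was 83 with DESeq2, 5 with limma-voom, 3 without a filter, 3 with the replicate block, 5 without overexpression replicates 1 and 2, 5 with a covariate for cortical neurons (chosen after seeing the data), and 1 to 2 when single libraries were left out. The median log2 fold change of the members was −0.00389 without overexpression replicates 1 and 2, 0.19 to 0.35 with single libraries left out and 0.04 with the choroid plexus covariate. Lpl was −0.40 without those 2 libraries, −0.18 with the choroid plexus covariate and −0.0276 to 0.41 with single libraries left out. Cd63 was −0.0191 and −0.0216, Tlr2 −0.44 and −0.16, and Apoe −0.19 and −0.13 in the former 2 settings. The log2 fold change of Apoe was also −0.00342 with limma-voom, −0.00315 without a filter, −0.00363 with the replicate block and −0.0594 to 0.0842 with single libraries left out. The cause of these turns was not tested. Correlations of deviations were −0.02, 0.03 and 0.29 for same-numbered replicates, and −0.34 to 0.35 for differently numbered ones. With 3 libraries per group these values cannot tell whether a shared number marks a shared origin, which the labels do not state. The replicate block called 0 members. Counts of 10 to 41 limit the precision of Cst7, and 39 to 85 that of Tlr2.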

Other observations

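The near relatives of the members were looked at after the members' values were seen. Treml2, a receptor related to Trem2, had 0.549, 0.341 and 0.643 CPM in the controls and 1.14, 1.14 and 1.17 CPM in the overexpressing samples, a log2 fold change of 1.17 (SE 0.31, adjusted p = 0.937 in edgeR). It was thus higher in every overexpression library and nearly even among them. Tlr9, the endosomal receptor for unmethylated DNA, had 1.13 ± 0.310 and 1.92 ± 0.168 CPM (SD, n = 3), and its groups did not overlap, unlike those of Tlr2. Cd37, a tetraspanin of leukocytes related to Cd63, had 5.12 ± 0.805 and 6.20 ± 0.167 CPM (SD, n = 3), again with separate groups. None of the 3 passed the adjusted threshold. They are named because their groups did not overlap, against 4.81% of all genes on the higher side. The groups overlapped for all other tested relatives, Tlr3, Tlr5, Tlr7, Tlr12, Tlr13, Cd53, Cd81, Cd82, Cd151, Cst3, Cst6 and Cstb.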
